A study of Homo sapiens with 12 samples.

Results

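The G1 cyclins and their kinases are described here as a set of 9 genes chosen by symbol: CCND1, CCND2 and CCND3, which encode the D-type cyclins, CCNE1 and CCNE2, which encode the E-type cyclins, the kinase genes CDK2, CDK4 and CDK6, and CDC25A, which encodes a phosphatase that activates CDK2. Of these, 8 had a row in the selinexor table (20029 genes) and the same 8 in the siRNA table (19610 genes); CCND2 was not analysed here. The cells were IMR5, a human neuroblastoma line with MYCN amplification, and total RNA libraries were read from them. There were 4 groups of 3 libraries. The first had been treated with 100 nM selinexor, which inhibits the export receptor XPO1, for 24 h, and was set against cells in medium with DMSO, whose time in culture is not given. The third had been nucleofected with XPO1 siRNA number 10 and was set against cells given control siRNA, both harvested after 72 h. All groups share the same line, so its MYCN amplification is present in the controls too, and the knockdown rests on a single siRNA sequence.

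D-type cyclins bind CDK4 or CDK6, and these complexes phosphorylate the retinoblastoma protein RB, which then releases E2F transcription factors. E2F drives transcription of the E-type cyclins, of CDC25A and of other genes of S phase entry, and cyclin E with CDK2 phosphorylates RB further. CDC25A removes inhibitory phosphates from CDK2, while proteins of the CIP/KIP and INK4 families hold the kinases back. CCND1 is known to be highly expressed in neuroblastoma, and phosphorylated cyclin D1 protein is known to leave the nucleus through XPO1; no protein was measured here.

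RefSeq promoter entries (GRCh38.p14) were given for CDC25A, CCND3, CDK4, CDK6 and CCNE1, and not for the other 4 members. Short words bound by known factors were searched on both strands in the 250 bases before each start. For E2F the word was TTTCCCG or, as alternatives, TTTGGCG or again TTTCGCG or otherwise TTTGCCG. For E-box factors such as MYC and MYCN it was CACGTG. For SP1 it was GGGCGG. For the cell cycle element CHR it was TTTGAA or alternatively TTCGAA. The windows of CDC25A and CDK4 are shown as examples, chosen after the search, since they were the windows that held an E2F or an E-box word. The strand is the minus strand for both, the regions are chr3:48188418-48188667 for CDC25A and chr12:57752311-57752560 for CDK4, and capitals mark E2F words in CDC25A and E-box words in CDK4.
CDC25A: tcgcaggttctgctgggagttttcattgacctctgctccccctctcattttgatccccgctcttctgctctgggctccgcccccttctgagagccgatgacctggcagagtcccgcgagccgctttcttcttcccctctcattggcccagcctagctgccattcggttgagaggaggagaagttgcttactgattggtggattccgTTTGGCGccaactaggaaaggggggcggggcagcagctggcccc
CDK4: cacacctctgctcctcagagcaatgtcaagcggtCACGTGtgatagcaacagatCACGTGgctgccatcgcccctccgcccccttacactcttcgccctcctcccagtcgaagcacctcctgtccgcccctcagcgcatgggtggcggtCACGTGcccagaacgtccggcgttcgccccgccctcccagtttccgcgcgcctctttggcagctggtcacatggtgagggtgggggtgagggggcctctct

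CDC25A held 1 E2F word, from base -44 to -38 relative to the start, in a class found in 7.33% of the 35116 promoter windows of this length. CDK4 held 3 E-box words, where 6.34% of windows held at least 1. None of the windows of CCND3 (3 entries), CDK6 (2 entries) or CCNE1 held an E2F, E-box or CHR word in these letters. SP1 words, found in 42.6% of all windows, numbered 7 in CCNE1, 3 in CDK4, 2 in CDC25A, 3 and 0 in the CDK6 windows, and 5, 2 and 0 in those of CCND3. In these windows no E2F, E-box or SP1 word overlapped another.

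Estimated depth was 26.9 to 33.8 M reads per selinexor library, 39.5 to 40.9 M per DMSO library, 33.5 to 55.8 M per XPO1 siRNA library and 40.6 to 53.97 M per control siRNA library. The summed neuroblastoma markers were 82690 to 96810 with selinexor against 68630 to 71160 with DMSO, and 96610 to 102900 with XPO1 siRNA against 78960 to 81020 with control siRNA, whereas the summed markers of leukocytes, endothelium and Schwann cells stayed at 143.4 or less. Each sum covers only the listed markers that had a row. These were 1 of 3 for leukocytes, 2 of 3 for endothelium and 3 of 4 for Schwann and glial cells. Of 3 epithelial markers, 0 had a row. The endothelial sum was 66.6 to 91.2 with selinexor against 41.3 to 44.2 with DMSO, and 78.6 to 93.8 with XPO1 siRNA against 41.4 to 53.2 with control siRNA. The Schwann and glial sum was 121 to 143 with selinexor against 81.2 to 100.2 with DMSO, and 129 to 143 with XPO1 siRNA against 78.6 to 119 with control siRNA. The fibroblast sum, almost all of it COL1A1, was 624.6 to 1621 with selinexor against 667 to 764 with DMSO, and 856 to 883 with XPO1 siRNA against 1011 to 1233 with control siRNA. The abundant RNAs RN7SL1 and RN7SL2 took 12.6% to 15.96% of the selinexor counts against 9.40% to 9.72% with DMSO, and 10.8% to 12.4% with XPO1 siRNA against 12.6% to 13.1% with control siRNA. The part of these differences in the results below was not tested. XPO1 stood at 4260, 4377 and 4397 normalized counts in the XPO1 siRNA libraries against 18568, 18950 and 18908 in the control siRNA libraries, so the labels of the knockdown hold.

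Each value is a count as normalized by the authors, and means carry the SD of 3 libraries. Log2 fold changes are fitted on log2(value + 1), with adjusted p from limma over all genes of a table. The labels do not say that replicates were separate cultures, so the spread behind each p-value may be technical. In bulk RNA, fewer cells that express a gene and less RNA of it per cell cannot be told apart.

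Selinexor left 7 of 8 members past the threshold, beside 49.2% of all genes tested, and XPO1 siRNA 8 of 8, beside 54.5%. With selinexor, CCND1 was higher, 6 members were lower and CDK6 did not pass. CDC25A and CCNE2 were the lowest relative to DMSO, at 5.50-fold and 5.11-fold. Read against the 22.9% of all 18128 tested genes that were higher and the 26.3% that were lower, 1 of the 8 members was higher and 6 were lower. The median log2 fold change of the members was -1.06, beside -0.0076 for all genes. With XPO1 siRNA, 2 members were higher and 6 lower, where 25.9% of 17616 tested genes were higher and 28.6% lower, and the median was -0.31 beside 0.0024 for all genes. Groups were free of overlap for 7 of 8 members with selinexor (61.7% of all genes) and for 8 of 8 with XPO1 siRNA (60.4% of all genes).

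Changes of 1 or more on the log2 scale were fewer. With selinexor, CCNE1, CCNE2, CDK2 and CDC25A were lower by that much, 4 of 8 members beside 5.53% of all genes, and 0 members were higher by it, beside 9.6%. With XPO1 siRNA, CCND1 was higher by that much, 1 of 8 beside 3.3%, and 0 members were lower by it, beside 1.53%.

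**Figure D1:**
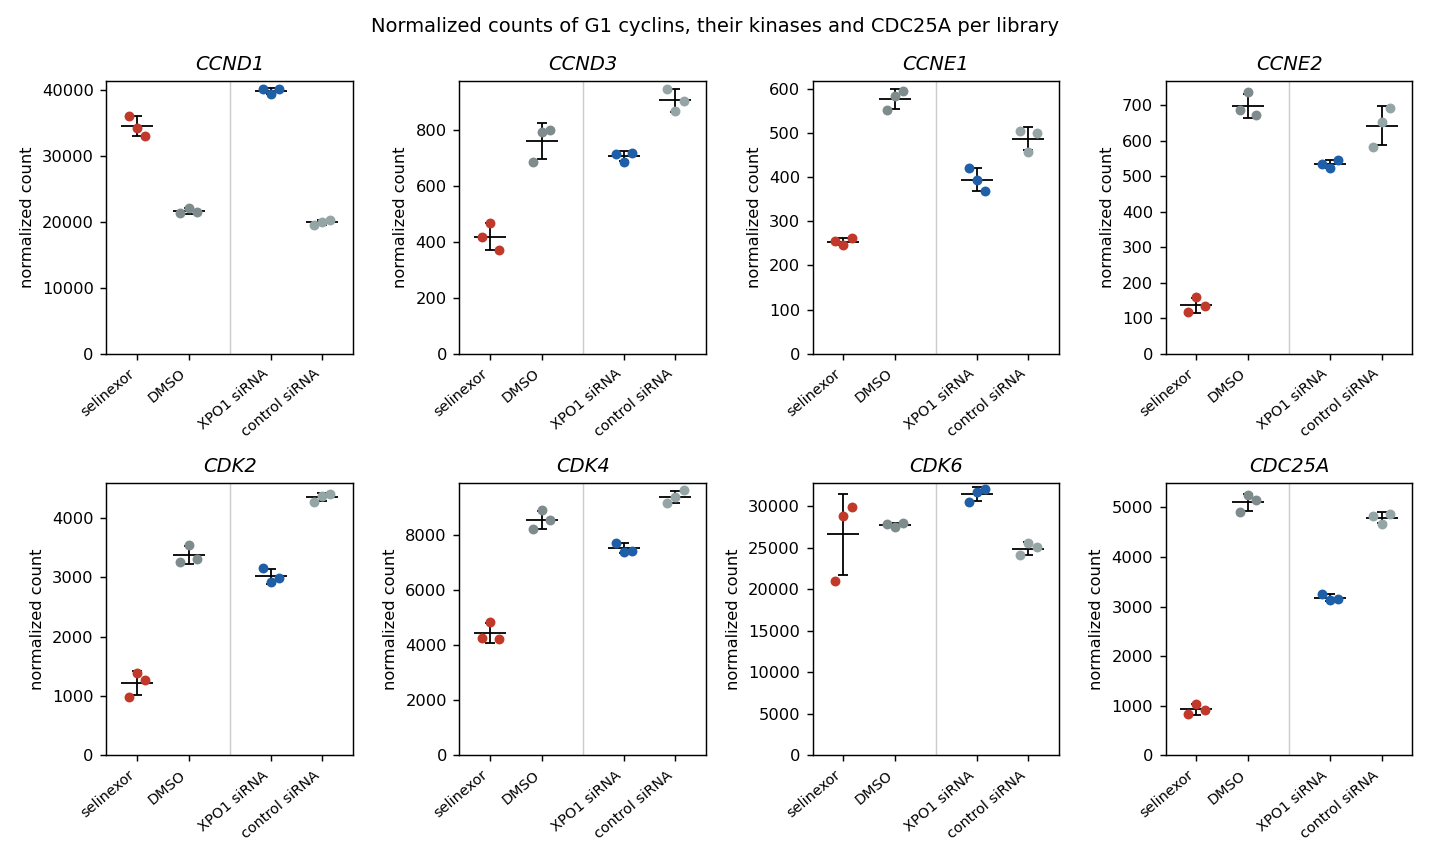
Normalized counts (y axis, from 0) of the 8 members in each library, with a panel per gene; points are libraries, the horizontal mark is the mean and the bar the SD of 3 libraries. In the CCND1 panel the selinexor and XPO1 siRNA points lie above their controls, in the CDK6 panel 1 selinexor library lies below all the others at 21031, and in the other 6 panels the selinexor and XPO1 siRNA points lie below their controls.

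CCND1, the cyclin D1 gene (hg19 chromosome 11, 69455855 to 69469243), was the member that rose in both comparisons. Its normalized counts were 36024, 34223 and 33026 in selinexor libraries, against 21273, 22085 and 21525 in DMSO libraries. Every selinexor library was above every DMSO library. The means were 34424 ± 1509 with selinexor and 21628 ± 416 with DMSO, which is 0.67 on the log2 scale (SE 0.0769, limma adjusted p = 0.000213). With XPO1 siRNA the counts were 40046, 39263 and 40062, against 19514, 19880 and 20295 with control siRNA. These groups were also apart, and the replicates of each lay close together. The means were 39790 ± 457 with XPO1 siRNA and 19896 ± 391 with control siRNA, which is 1.0 on the log2 scale (SE 0.0313, limma adjusted p = 2.13e-11).

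CCND3, the cyclin D3 gene (chromosome 6, 41902671 to 42018096), went the other way from CCND1. It stood at 419, 469 and 370 in selinexor libraries, against 687, 794 and 801 in DMSO libraries. The groups did not overlap, and the log2 fold change was -0.86 (SE 0.118, limma adjusted p = 0.000549). With XPO1 siRNA it stood at 713.5, 686.5 and 720, against 948, 868 and 905 with control siRNA. The fall was smaller there, at -0.36 on the log2 scale (SE 0.0538, limma adjusted p = 7.5e-05), and the groups were again apart.

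Levels of different genes were compared only as normalized counts per kb of annotated exon. On that scale CCND1 made up 98.7%, 98.5% and 98.8% of CCND1 plus CCND3 in selinexor libraries, against 96.5%, 96.1% and 96.0% in DMSO libraries. The share was 98.1%, 98.1% and 98.0% with XPO1 siRNA, against 94.9%, 95.4% and 95.3% with control siRNA. D-type cyclin mRNA other than CCND2 was thus nearly all CCND1 in every group, and its share was higher by 2.44 percentage points with selinexor and by 2.90 with XPO1 siRNA. In both cases no libraries overlapped and the two-sided exact permutation test gave p = 0.1, the smallest that 3 against 3 allows.

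CDK4, which encodes a kinase partner of the D-type cyclins (chromosome 12, 58141510 to 58149797), fell in both comparisons. It stood at 4240, 4836 and 4221 in selinexor libraries, against 8224, 8885 and 8520 in DMSO libraries. All selinexor libraries were below all DMSO libraries, and the log2 fold change was -0.95 (SE 0.0851, limma adjusted p = 5.75e-05). With XPO1 siRNA it stood at 7709, 7387 and 7423, against 9161, 9362 and 9607 with control siRNA. The log2 fold change was -0.32 (SE 0.0335, limma adjusted p = 2.81e-06), with groups that did not overlap.

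CDK6, which encodes the other D-type cyclin kinase (chromosome 7, 92234235 to 92465909), did not follow CDK4. It stood at 21031, 28871 and 29874 in selinexor libraries, against 27814, 27508 and 27966 in DMSO libraries. Selinexor replicate 1 was below all DMSO libraries, and replicates 2 and 3 were above them. The log2 fold change was -0.08 (95% interval -0.38 to 0.22, limma adjusted p = 0.641), and 0.08 without selinexor replicate 1 (adjusted p = 0.197, within 0.197 to 0.992 over all alternatives). With XPO1 siRNA it stood at 30489, 31677 and 32107, against 24097, 25542 and 25063 with control siRNA. These groups were apart, and CDK6 rose by 0.34 on the log2 scale (SE 0.0347, limma adjusted p = 2.55e-06).

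Selinexor replicate 1 stood apart from the other selinexor libraries, with a log2 correlation of 0.974 and 0.977 to them, where they correlated at 0.991. On the log2 scale its deviation from the mean of replicates 2 and 3 was -0.482 for CDK6, -0.429 for CDK2, -0.317 for CCNE2 and -0.244 for CDC25A. For CDK4, CCND3, CCNE1 and CCND1 it was between -0.0915 and 0.0997. Among genes with 8 kb or more of exon, as CDK6 has, the median deviation was -0.0989. It was -0.102 for genes of 4 to 8 kb, -0.0533 for 2 to 4 kb and -0.0259 under 2 kb. CDK2, at -0.429, has 2440 bases of exon, and CCND1, at 0.0997, has 4405. The part of RNA quality or of the library in this was not tested. Without that library the same 7 members passed, from 0.64 for CCND1 to -2.38 for CDC25A on the log2 scale.

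Per kb of exon, CDK6 made up 46.8%, 51.4% and 55.6% of CDK4 plus CDK6 in selinexor libraries, against 37.5%, 35.4% and 36.8% in DMSO libraries. With XPO1 siRNA the share was 41.2%, 43.2% and 43.4%, against 31.8%, 32.6% and 31.6% with control siRNA. CDK6 thus took a larger share of this kinase pair in every selinexor and XPO1 siRNA library than in any control of its table, by 14.7 and 10.6 percentage points (exact permutation p = 0.1 for each). The size of the share depends on the exon length used, 11729 bases for CDK6 and 2076 for CDK4.

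**Figure D2:**
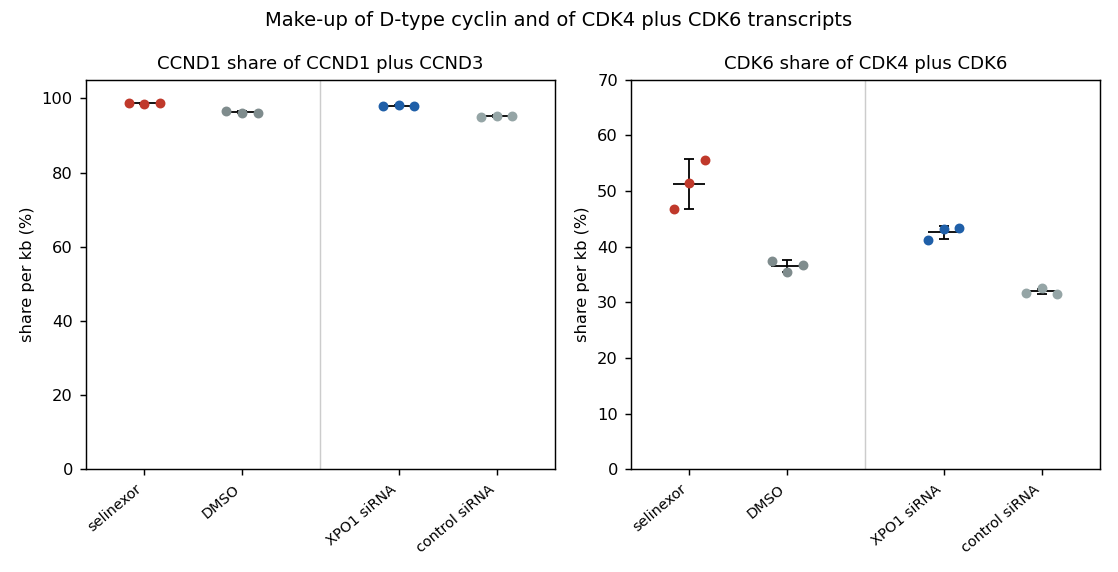
Share per kb of exon (y axis, percent, from 0) of CCND1 in CCND1 plus CCND3 (left) and of CDK6 in CDK4 plus CDK6 (right); points are libraries, marks and bars are mean and SD of 3. CCND1 is above 94% everywhere, and the CDK6 share averages 51.2% with selinexor against 36.5% with DMSO, and 42.6% with XPO1 siRNA against 31.97% with control siRNA.

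The E-type cyclins fell in both comparisons, and with selinexor their 95% intervals were -2.65 to -2.06 for CCNE2 and -1.39 to -0.97 for CCNE1 on the log2 scale. CCNE1 (chromosome 19, 30302805 to 30315216) stood at 254, 245 and 262 in selinexor libraries, against 551, 583 and 596 in DMSO libraries. The groups were far apart, at -1.18 on the log2 scale (SE 0.0930, limma adjusted p = 2.82e-05). CCNE2 (chromosome 8, 95891998 to 95908907) stood at 117, 159 and 134 in selinexor libraries, against 687, 738 and 672 in DMSO libraries. This was the member with the fewest reads, an estimated 98 in selinexor replicate 1 (95% exact Poisson interval 79.6 to 119, counting error only). All its selinexor libraries were below all DMSO libraries, and the log2 fold change was -2.35 (SE 0.130, limma adjusted p = 4.54e-06).

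With XPO1 siRNA the falls of both E-type cyclin genes were modest. CCNE1 stood at 420, 393 and 369 with XPO1 siRNA, against 504, 456 and 500 with control siRNA (log2 fold change -0.31, SE 0.0728, limma adjusted p = 0.00292). CCNE2 stood at 536, 523 and 547 with XPO1 siRNA, against 582, 654 and 692 with control siRNA (log2 fold change -0.26, SE 0.0685, limma adjusted p = 0.00559). For both genes the groups did not overlap, although the nearest libraries were close. With libraries rescaled to equal totals, the CCNE2 change was -0.17 (adjusted p = 0.0495, the highest among the alternatives, which ran from 0.000964).

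CDK2, which encodes the kinase partner of cyclin E (chromosome 12, 56360553 to 56366569), fell in both comparisons. It stood at 990, 1393 and 1278 in selinexor libraries, against 3263, 3553 and 3317 in DMSO libraries. No libraries overlapped, and the log2 fold change was -1.48 (SE 0.127, limma adjusted p = 4.47e-05). With XPO1 siRNA it stood at 3161, 2916 and 2985, against 4271, 4372 and 4409 with control siRNA. The log2 fold change was -0.53 (SE 0.0387, limma adjusted p = 9.92e-08), again without overlap. The gene PMEL, on the opposite strand, spans all 6017 bases of CDK2 in the deposited coordinates and rose by 1.93 with selinexor and 1.72 with XPO1 siRNA. The sources used here do not say whether strand was used in counting.

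CDC25A (chromosome 3, 48198636 to 48229893) had the largest fall among the members in each comparison. It stood at 824, 1045 and 912 in selinexor libraries, against 4914, 5242 and 5153 in DMSO libraries. The highest selinexor library was far below the lowest DMSO library, and the log2 fold change was -2.47 (SE 0.101, limma adjusted p = 1e-06). With XPO1 siRNA it stood at 3257, 3128 and 3144, against 4834, 4667 and 4867 with control siRNA. The log2 fold change was -0.59 (SE 0.0355, limma adjusted p = 1.45e-08), and the groups did not overlap.

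**Figure D3:**
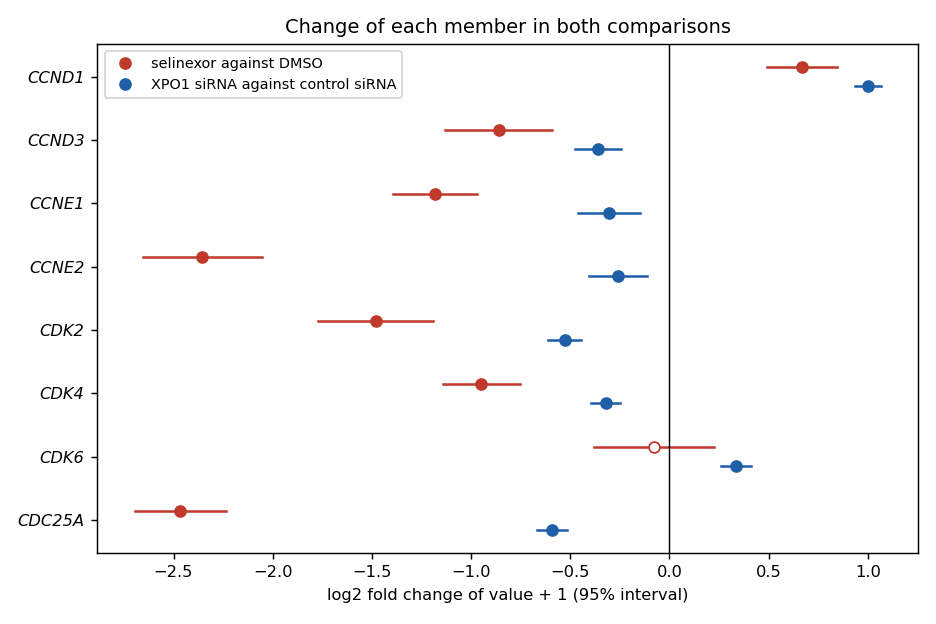
Log2 fold change of value + 1 (x axis) with its 95% interval for each member, selinexor against DMSO in red and XPO1 siRNA against control siRNA in blue; filled points passed the threshold and open points did not. CCND1 is on the right of 0 in both, CDK6 is at -0.08 and 0.34, and the other 6 members are on the left, each further left with selinexor.

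The selinexor and knockdown effects were then compared directly, as the selinexor change minus the knockdown change. Doses, times and delivery differ between them, so the difference belongs to these 2 treatments as given. It was below 0 and past the threshold for 8 of 8 members, where 20.2% of 17308 genes tested were below 0 and past it (31.8% in either direction). For CCNE2 and CDC25A it was -1 or less, 2 of 8 members beside 2.98% of genes, and for 0 members 1 or more, beside 4.28%. For CCNE2 the difference was -2.09 (SE 0.149, limma adjusted p = 5.79e-07), and for CDC25A it was -1.87 (SE 0.106, limma adjusted p = 1.01e-07). CDK2 (-0.95), CCNE1 (-0.88), CDK4 (-0.63) and CCND3 (-0.50) also fell further with selinexor (limma adjusted p from 7.34e-05 to 0.0101). For CCND1 the difference was -0.33 (95% interval -0.49 to -0.17, limma adjusted p = 0.00463), so its rise was smaller with selinexor.

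For CDK6 the difference was -0.42 (95% interval -0.73 to -0.10, limma adjusted p = 0.0432). That call depended on which libraries were in the fit. Without selinexor replicate 1 the difference was -0.25 (adjusted p = 0.00146), and without selinexor replicate 2 or 3 the adjusted p was 0.019 and 0.0147. It did not pass without DMSO replicate 1, 2 or 3 (adjusted p = 0.0781, 0.0761 and 0.0841), control siRNA replicate 1, 2 or 3 (0.0951, 0.0666 and 0.0744) or XPO1 siRNA replicate 1, 2 or 3 (0.0658, 0.083 and 0.0878). Over all alternatives it ran from 0.00146 to 0.0951.

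The order of the members by level per kb differed between the groups. With selinexor, CCND1 was the highest (7815 ± 343 per kb). CDK6 (2267 ± 413) and CDK4 (2135 ± 169) followed and did not differ beyond their spread. Then came CDK2 (500.2 ± 85.0), CDC25A (245 ± 29.4), CCNE1 (122 ± 4.02) and CCND3 (106 ± 12.6), CCNE1 and CCND3 being within their spread, and CCNE2 (39.9 ± 6.20). With DMSO, CCND1 (4910 ± 94.3) was followed by CDK4 (4115 ± 159) and CDK6 (2367 ± 19.9). CDK2 (1384 ± 63.1) and CDC25A (1349 ± 44.9) did not differ beyond their spread there, and neither did CCNE2 (204 ± 9.98) and CCND3 (193 ± 16.2), below CCNE1 (277.5 ± 11.1).

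With XPO1 siRNA the order was CCND1 (9033 ± 104 per kb), CDK4 (3616 ± 84.9), CDK6 (2679 ± 71.4), CDK2 (1238 ± 51.9) and CDC25A (839.7 ± 18.5). CCNE1 (189.7 ± 12.4) and CCND3 (179 ± 4.54) then lay within their spread, above CCNE2 (156 ± 3.45). With control siRNA, CCND1 (4517 ± 88.7) and CDK4 (4517 ± 108) stood at the same level per kb. CDK6 (2123 ± 62.7), CDK2 (1783 ± 29.3) and CDC25A (1266 ± 28.3) came below them, then CCNE1 (234 ± 12.8) and CCND3 (230.1 ± 10.1), which were within their spread, and CCNE2 (187 ± 16.2).

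Other genes that act on these cyclins and kinases were described from a list of 43, of which 42 were tested in each comparison. With selinexor 4 were higher and 23 lower, beside 22.9% higher and 26.3% lower of all genes tested, and the median log2 fold change was -0.45, beside -0.0076 for all genes. With XPO1 siRNA 11 were higher and 19 lower, beside 25.9% and 28.6% of all genes, and the median was -0.09, beside 0.0024. The share of the list that was higher with XPO1 siRNA was thus near that of all genes. Among inhibitors, CDKN1A, which encodes p21, had a log2 fold change of 5.43 with selinexor (SE 0.0855) and 4.50 with XPO1 siRNA (SE 0.0407). CDKN1B, which encodes p27, fell with selinexor (2698 ± 247 against 3384 ± 92.8 with DMSO) and rose with XPO1 siRNA (3832 ± 73.5 against 2933 ± 71.1 with control siRNA). The difference of these effects was -0.72 (limma adjusted p = 8.3e-05). CDKN1C, which encodes p57, rose 2.72-fold with selinexor (424 ± 55.7 against 154.9 ± 6.67 with DMSO) and had a log2 fold change of -0.10 with XPO1 siRNA (limma adjusted p = 0.409). Among INK4 inhibitor genes, CDKN2D fell in both comparisons (-0.68 and -0.63) and CDKN2C fell with selinexor (-0.57), its log2 fold change with XPO1 siRNA being -0.08 (limma adjusted p = 0.153).

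Of 3 pocket protein genes, RBL1, which encodes p107, fell in both comparisons, with log2 fold changes of -1.55 with selinexor and -0.50 with XPO1 siRNA. RB1 itself had log2 fold changes of -0.36 and 0.02 (limma adjusted p = 0.0947 and 0.616), and RBL2, which encodes p130, of -0.16 and 0.15 (limma adjusted p = 0.278 and 0.0138). Of 7 E2F and DP genes, 5 fell and 1 rose in each comparison, where 26.3% of all genes were lower and 22.9% higher with selinexor, and 28.6% lower and 25.9% higher with XPO1 siRNA. E2F1, an activator of S phase genes, fell 3.35-fold with selinexor and 1.34-fold with XPO1 siRNA, and E2F2 9.72-fold and 1.71-fold. TFDP2, which encodes a partner of E2F, rose 1.65-fold and 1.56-fold.

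Among genes for the turnover of cyclins and CDC25A, 1 of 12 rose and 6 fell with selinexor, and 4 rose and 4 fell with XPO1 siRNA. Of all genes tested, 22.9% were higher and 26.3% lower with selinexor, and 25.9% were higher and 28.6% lower with XPO1 siRNA, so the knockdown counts are near the background. FBXW7, whose product marks cyclin E for destruction, rose in both, to 3509 ± 409 with selinexor against 1445 ± 28.6 with DMSO, and to 2317 ± 29.8 with XPO1 siRNA against 1404 ± 80.9 with control siRNA. CKS1B, a cofactor of the ligase that destroys p27, fell 3.05-fold and 1.73-fold, and CHEK1, a kinase that targets CDC25A for destruction, fell 2.86-fold and 1.32-fold.

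The other CDC25 phosphatase genes fell in both comparisons as CDC25A did, CDC25C 2.90-fold with selinexor and 1.34-fold with XPO1 siRNA, and CDC25B 1.67-fold and 1.20-fold. The genes of the kinases that oppose them, WEE1 (3.53-fold and 1.26-fold) and PKMYT1 (4.62-fold and 1.78-fold), fell too. So did those of the later partners of CDK2 and their kinase, CCNA1 (1.60-fold and 1.76-fold), CCNA2 (4.87-fold and 1.75-fold) and CDK1 (4.13-fold and 1.43-fold). Of the 3 genes of the CDK-activating kinase, 0 passed in either comparison by limma. Of all genes tested, 49.2% passed with selinexor and 54.5% with XPO1 siRNA. For CDK7 the selinexor libraries were spread widely (467 ± 106 against 583 ± 4.55 with DMSO). CDK7, CCNH and MNAT1 had log2 fold changes of -0.35, 0.07 and 0.07 with selinexor and -0.05, 0.04 and -0.04 with XPO1 siRNA, and 0 of these 6 tests had an unadjusted p under 0.05. NPAT, which encodes a substrate of cyclin E with CDK2 at histone genes, fell with selinexor (-0.67 on the log2 scale) and rose by 0.17 with XPO1 siRNA (difference -0.84, limma adjusted p = 0.00933). CDC37, a chaperone of CDK4, had values of -0.10 (limma adjusted p = 0.552) and 0.11 (0.0383), and CDK3 of 0.07 (0.852) and 0.65 (0.00261). CCNC, its cyclin partner, did not pass in either (-0.28 and -0.13, limma adjusted p = 0.346 and 0.0584).

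**Figure D4:**
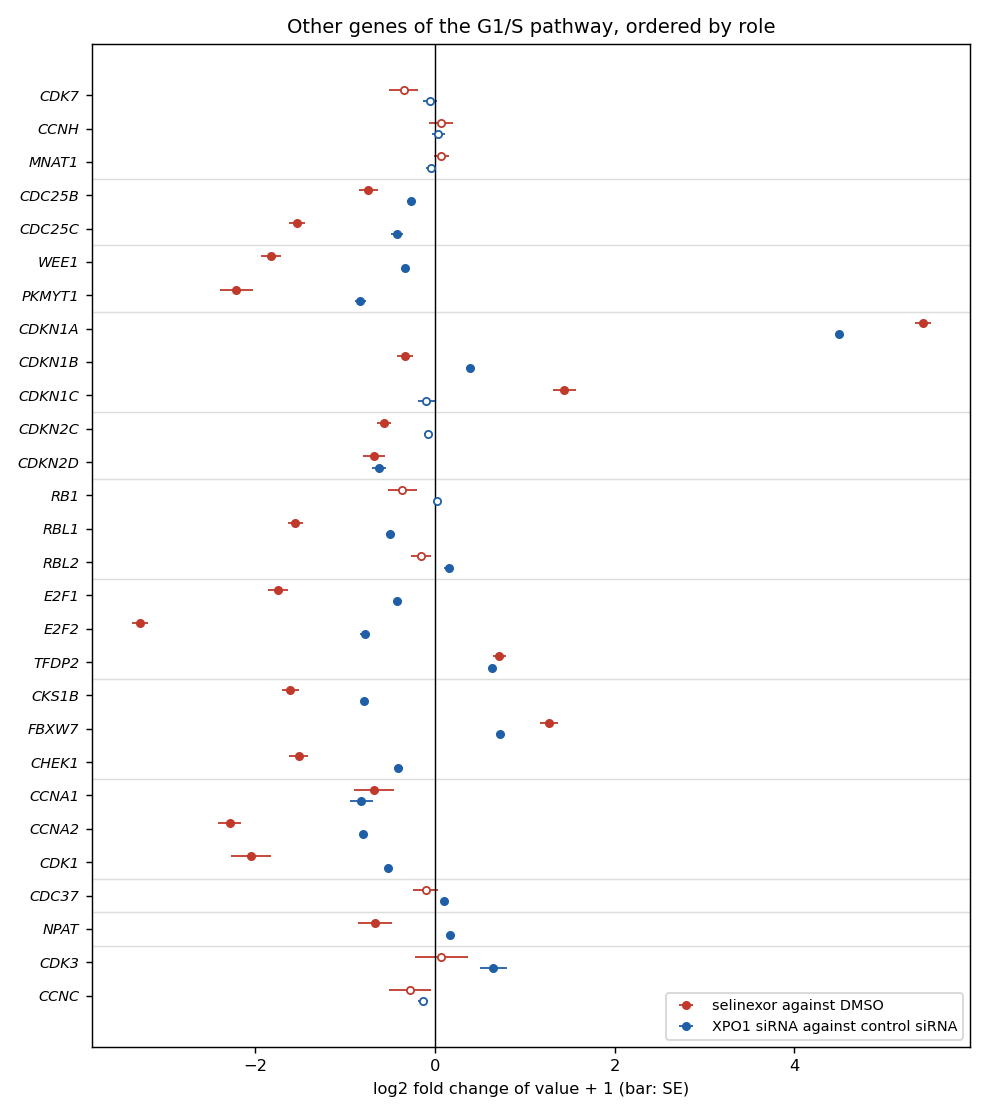
Log2 fold change of value + 1 (x axis, bars are SE) of up to 3 genes per role, selinexor against DMSO in red and XPO1 siRNA against control siRNA in blue; filled points passed the threshold, and grey lines part the roles. CDKN1A lies furthest right at 5.43 and 4.50, and E2F2 furthest left at -3.28 with selinexor. Of the 3 genes of the CDK-activating kinase, CCNH and MNAT1 lie near 0. CDK7 lies at -0.35 with selinexor (SE 0.163) and at -0.05 with XPO1 siRNA.

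The genes with the pattern most like that of each member were found by the root mean square distance between their log2 values, each taken relative to the control mean of its table, over 12 libraries and 10661 genes. Those nearest to CCND1 were FOXO3B (distance 0.0743) and APLP2 (0.0774), and reads of FOXO3B may be shared with its near-identical copy FOXO3. CDC25A lay nearest to the replication genes MCM4 (0.0600) and ORC1 (0.0867), and PLK4, a centriole kinase gene, was among the nearest of CCNE2 (0.115). CDK4 lay nearest to LRRC59 (0.0237) and the proteasome gene PSMD7 (0.0405), and CDK2 to GGCT (0.0540) and the replication protein gene RPA2 (0.0576). CDK6 lay nearest to CCNL1 (0.0381) and CLASP2 (0.0384), CCND3 to JMJD8 (0.0457) and AGFG2 (0.0697), and CCNE1 to PKP4 (0.0719) and YWHAH (0.0798).

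Several members share bases with a gene on the opposite strand in the deposited coordinates. For CCND1 this was ORAOV1, over 1400 bases, whose log2 fold change was 0.08 with selinexor (limma adjusted p = 0.512) and 0.27 with XPO1 siRNA (limma adjusted p = 0.0126). INTS8 overlapped CCNE2 by 1978 bases and had -0.27 (limma adjusted p = 0.0873) and -0.35 (limma adjusted p = 8.08e-06). TSPAN31 overlapped CDK4 by 2486 bases and had 0.02 (limma adjusted p = 0.905) and -0.19 (limma adjusted p = 0.0125). MARCH9, listed under a date-like name in the siRNA table, overlapped CDK4 by 917 bases and rose with selinexor, with 0.70 (limma adjusted p = 0.00409) and 0.14 (limma adjusted p = 0.209). NDUFAF6 overlapped CCNE2 by 913 bases and had -0.08 (limma adjusted p = 0.464) and 0.14 (limma adjusted p = 0.147). AC002454.1 overlapped CDK6 by 113 bases and had 0.35 (limma adjusted p = 0.152) and 0.21 (limma adjusted p = 0.0126). Group means were 401 to 518 for ORAOV1 and 709 to 911 for TSPAN31, below those of CCND1 and CDK4, and 1489 to 2399 for INTS8, above those of CCNE2. An entry named SNORA68 spans all of CCNE1 on the same strand and had 0.15 (limma adjusted p = 0.814) and -0.02 (limma adjusted p = 0.903). Its mean was 699.7 with selinexor and 532.6 with DMSO, beside 254 and 577 for CCNE1. With XPO1 siRNA it was 762.8 and with control siRNA 763.4, beside 394 and 487 for CCNE1. Whether reads are shared between these 2 entries was not tested.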

How the data were processed

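Libraries were strand-specific and from total RNA, per the labels' protocols. Per the submitters' processing notes, the tools were STAR 2.7.3a, Partek and DESeq2, on hg19. Annotation and counting options are not stated there or in the labels. The unit deposited by the authors is a signal: each library's gene counts over its size factor, with the 2 tables normalized apart. Tests stay within a table, or compare effects formed within each. The siRNA table held 3 further per-sample columns that matched no sample used here, and these were left out. Reads per library were estimated from the steps of low values; 61.96% to 66.8% of values in the range 0.3 to 60 came out as multiples to within 0.02, too few for whole reads, hence no count model. Tests by limma 3.58.1 in R 4.3.3 covered genes whose mean over a table's 6 libraries reached 10 (intensity trend, two-sided, Benjamini-Hochberg, threshold 0.05) on log2(value + 1), with the group as the only term. The difference of effects was fitted on all 12 libraries. Exon lengths are the union of exons in GENCODE 29, by symbol. Same-numbered replicates were not paired by the labels. The members and lists were chosen with earlier results of these data known. Named were all members, XPO1, up to 3 genes per role with the smallest p, and the 2 genes nearest to each member, except 1 gene near CCNE2 and 1 INK4 gene that are not reported here; marker genes, overlapping genes and CCND2 are named for the checks they belong to. Alternatives were pseudocounts of 0.5 and 5, no filter or a mean of 50 or more, scaling by totals or by a 30% trimmed mean, each library left out, a replicate block, no intensity trend, a minimum log2 change of 1, and shares without division by length.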

Additional observations from a re-analysis of the deposited data

Results flagged for a closer look

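The selinexor and knockdown effects differed for 8 of 8 members by the test of the difference itself (limma on 12 libraries, adjusted p under 0.05, as for 31.8% of all genes tested). As selinexor minus knockdown on the log2 scale, the difference was -2.09 for CCNE2, -1.87 for CDC25A, -0.95 for CDK2, -0.88 for CCNE1, -0.63 for CDK4, -0.50 for CCND3, -0.42 for CDK6 and -0.33 for CCND1. CDK6 was the only member whose fitted effects differed in sign, but with selinexor it did not pass (-0.08, limma adjusted p = 0.641). That selinexor effect turned positive without selinexor replicate 1. The CDK6 difference did not pass in every alternative, its limma adjusted p running from 0.00146 to 0.0951. Dose, time, delivery and table differ between the treatments together and cannot be told apart here.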

How the results depend on the processing

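Across 408 combinations of member, comparison and alternative, 381 kept both direction and side of the threshold and 26 lost the call. The lost calls were 3 with selinexor, 7 with XPO1 siRNA and 16 for the difference. Apart from those under a minimum log2 change of 1, all were of the CDK6 difference. The 1 reversal was CDK6 with selinexor, at 0.081 without selinexor replicate 1. With a minimum log2 change of 1, 4 members were called with selinexor (2742 genes in all), 1 with XPO1 siRNA (851) and 2 for the difference (1255). Each library left out in turn gave 7 members with selinexor (6540 to 11113 genes), 8 with XPO1 siRNA (8428 to 9148) and 7 to 8 for the difference (4352 to 7621). Rescaling to equal totals changed the split of all genes called with XPO1 siRNA to 62.4% higher in place of 47.5%, and kept every member's direction. It moved CCNE2 with XPO1 siRNA to -0.17. Without an intensity trend the CDK6 difference did not pass (adjusted p = 0.0776). Without division by length, the shares of CCND1 differed by 2.19 points with selinexor and 2.62 with XPO1 siRNA, and those of CDK6 by 9.03 and 8.07. With libraries left out they ran from 2.33 to 2.58 and 2.75 to 3.00 for CCND1, and from 12.5 to 16.96 and 10.2 to 11.3 for CDK6. Same-numbered replicates deviated with correlations of -0.104 to 0.119, and other-numbered ones with -0.0929 to 0.0914. Not every sample correlated best with its own number. With so few pairs, whether same-numbered replicates share a culture or batch cannot be told from this. With a replicate block 8671, 9321 and 5067 genes passed and the count of members was 7, 8 and 8. The fewest estimated reads of any member in a library were the 98 of CCNE2 in selinexor replicate 1.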
